A study of Drosophila melanogaster with 2 samples.

Results

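The genes described here are 10 core genes of the Notch pathway of Drosophila melanogaster, given by symbol: the receptor gene N, the ligand genes Dl and Ser, the nuclear effector genes Su(H), H, gro and mam, and the genes neur, kuz and fng, whose products act on ligand or receptor. They are 10 of the 13945 protein-coding genes annotated on the main chromosome arms. For each gene, the peaks with a summit in the gene body or within 1 kb of an annotated transcription start were collected from all 4 thresholded peak lists. The study is a chromatin immunoprecipitation with sequencing (ChIP-seq) of whole transgenic embryos aged 0 to 24 h carrying a klu-eGFP fusion, in which the protein Klumpfuss (Klu) bears a green fluorescent tag, and the tag was the target of the antibody. Klu, a DNA-binding protein with zinc fingers, belongs to the EGR/WT1 family. The samples are 2 biological replicates, listed as separate biosamples of 1 strain, and form 1 group, so no condition is compared, and a control library was not analysed here. The labels name an insertion targeting klu and do not say what drives the tagged gene. Signal from whole embryos averages over all cell types and over a day of development, so binding in few cells and weak binding in many cannot be told apart.

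Notch signalling acts between touching cells. A ligand on one cell binds the receptor on its neighbour, the receptor is cut, and its intracellular part enters the nucleus, where it joins the DNA-binding protein Su(H) and the co-activator Mam at target genes. Without signal, Su(H) is held with Hairless (H) and the co-repressor Groucho (Gro), and targets are silent. In the fly embryo this exchange decides which cells of the neurectoderm become neural stem cells (neuroblasts) and, later, which cells of a cluster become sensory organ precursors.

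The sequences at the summits show how different the places are at which these genes carry peaks. The 101 bases centred on the summit are printed for 7 peaks on the forward strand of the dm6 assembly, read from the release 6 reference genome, with the longest run of A and T only in capitals and any match to the Klu/EGR motif also in capitals. The windows lie at chrX:3162489-3162589 (N, intron), chr3R:19304969-19305069 (Dl, coding exon), chr2L:15039358-15039458 (Su(H), upstream), chr3R:26041621-26041721 (gro, upstream of the first start), chr3R:26042465-26042565 (gro, intron), chr3R:9033877-9033977 (neur, beside the inner start) and chr3R:9038839-9038939 (neur, beside the outer start).
N: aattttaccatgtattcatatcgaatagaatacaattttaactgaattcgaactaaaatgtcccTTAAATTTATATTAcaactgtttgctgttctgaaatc
Dl: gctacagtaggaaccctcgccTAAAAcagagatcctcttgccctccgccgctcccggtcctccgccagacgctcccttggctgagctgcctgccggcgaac
Su(H): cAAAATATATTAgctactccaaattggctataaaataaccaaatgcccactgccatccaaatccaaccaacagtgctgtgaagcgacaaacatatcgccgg
gro, upstream: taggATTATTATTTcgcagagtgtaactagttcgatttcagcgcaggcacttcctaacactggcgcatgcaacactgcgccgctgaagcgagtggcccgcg
gro, intron: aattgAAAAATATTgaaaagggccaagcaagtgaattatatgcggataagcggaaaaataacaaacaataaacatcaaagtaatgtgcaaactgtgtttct
neur, inner start: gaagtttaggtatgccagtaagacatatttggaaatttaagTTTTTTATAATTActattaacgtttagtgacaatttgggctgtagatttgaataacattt
neur, outer start: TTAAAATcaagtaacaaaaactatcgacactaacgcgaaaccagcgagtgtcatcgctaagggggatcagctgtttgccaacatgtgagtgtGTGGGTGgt
The longest A/T run had 14 bases at N, 13 at the inner neur start, 11 at Su(H), 10 and 9 at the gro peaks, 7 at the outer neur start and 5 at Dl. The median over all pooled peaks was 10, and the Dl and Su(H) peaks are not among these. No window of mam is printed. Its longest runs had 16 bases at the upstream peak, 4 before the middle start and 12 at the peak of highest signal.

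For each replicate the authors deposited candidate peaks by rank (the ranked list) and the part that passed their threshold (the thresholded list). For both replicates together there were a longer thresholded list (the pooled list) and a shorter one (the conservative list), and the ranked list that holds all peaks of the pooled list was used as the pooled ranked list. The pooled list held 3126 peaks, 3087 of them on the main arms. On those arms there were 2386 conservative peaks, 1511 from replicate 1 and 2561 from replicate 2. Each peak has a deposited score of up to 1000, and the thresholded lists hold scores of 830 or more. Each peak also has a deposited signal, a height with no stated scale, so signals are ranked within a list only. Whether the ranked lists used here hold every candidate of every region is not known. The absence of a candidate therefore describes these lists and not the embryos. This holds in particular at N, Dl, H and kuz and, outside replicate 1, at Su(H). The lists hold no read counts, and the depth of each library is unknown.

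Peaks were found at the co-repressor and co-activator genes, at the receptor and at neur, and in the pooled list not at either ligand gene, Su(H), H, kuz or fng. Within 1 kb of a start, 3 of the 10 genes had a pooled summit, namely gro, mam and neur, against 16.1% of all protein-coding genes. That share was 10.3% for genes below 2 kb, a class without members. In the longer classes, which hold all members, it ran from 19.1% (2 to 5 kb) to 25.4% (50 kb and more). Genes with more starts also offer more room: gro, mam and neur had 4, 3 and 2 annotated starts. Of the other members only Ser had more than 1. In the gene body, 4 of the 10 had a pooled summit, namely gro, mam, neur and N, against 8.83% of all protein-coding genes. Long genes offer more room: of the 7 members of 10 kb or more (N, Dl, Ser, mam, neur, kuz and fng), 3 had a body summit, against 33.5% of all genes of that length. By gene length the share with a body summit ran from 1.72% below 2 kb to 52.4% at 50 kb and more, and the longest members fell on both sides, mam (69.2 kb) with body summits and kuz (89.3 kb) with none. These counts are descriptions and were not tested.

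**Figure D1:**
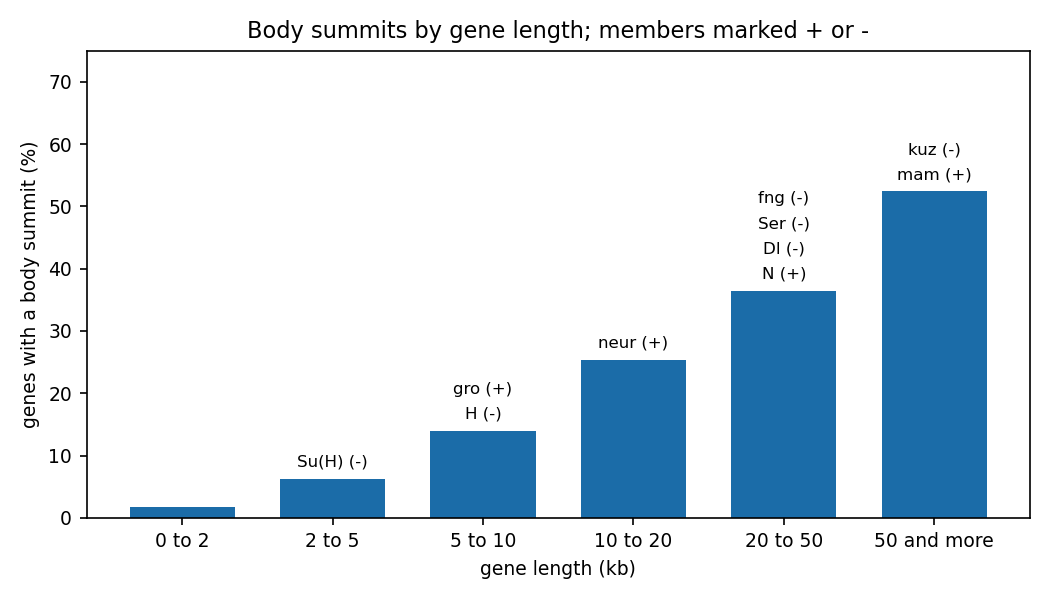
Share of all protein-coding genes with a pooled summit in the body (bars, percent) by gene length in kb, with the 10 genes written above the bar of their length class and marked + where they have a body summit and - where they do not. The share rises from 1.72% to 52.4%; gro, neur, N and mam are marked +, and 6 genes are marked -.

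The 4 genes held 10 pooled summits, 2 at N, 2 at gro, 3 at mam and 3 at neur. The list of replicate 2 alone, with 2561 peaks, held 11 summits at the 10 genes. That of replicate 1 alone, with 1511 peaks, held 6. The 11 include the flanking peaks at N and Dl described below, with signals of 4.38 and 4.28. Of the 10 pooled summits, 6 lay within 1 kb of a start of their gene and 4 farther in. For 4 of those 6 the start of the member was the nearest of any protein-coding gene, and for the other 2 another gene's start was nearer. Peaks in the lists of both replicates made up 5 of the 10 (41.3% over all pooled peaks), 3 were in the list of replicate 2 only (30.9%), none was in the list of replicate 1 only (6.61%), and 2 were in neither (21.2%). The conservative list held 7 of the 10, against 73.0% of all pooled peaks.

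**Figure D2:**
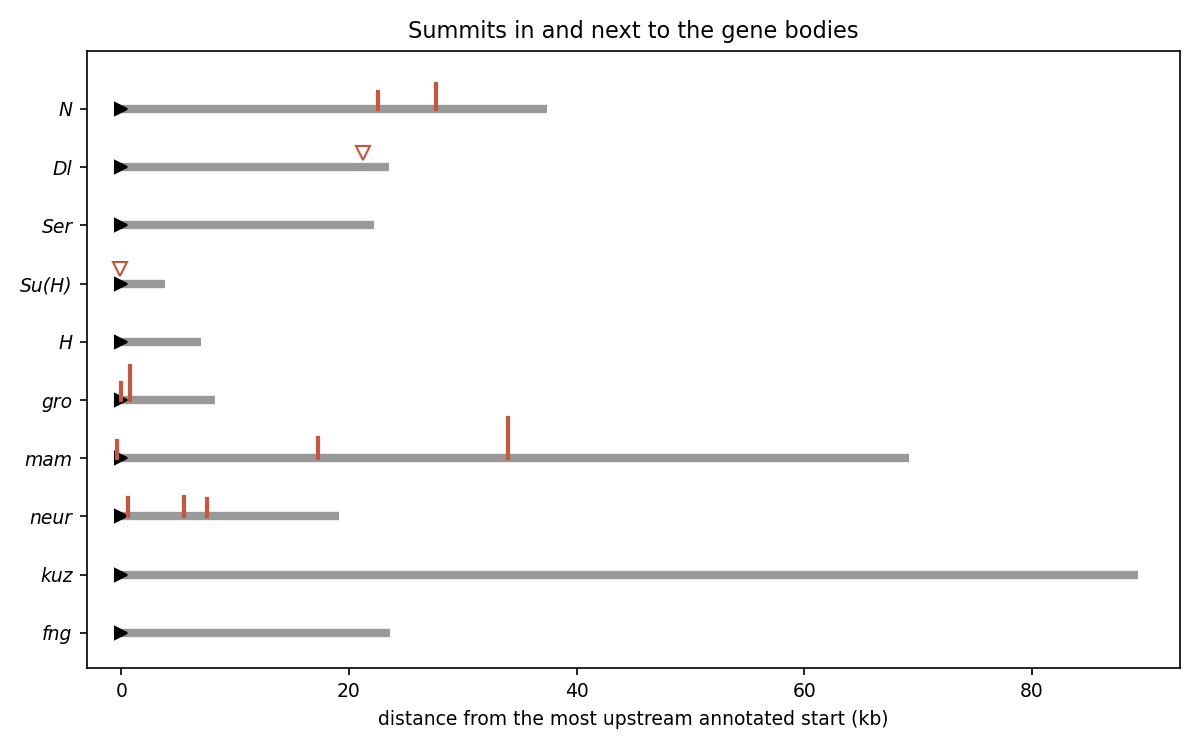
The 10 genes drawn to scale from their most upstream annotated start (black arrowhead, kb along the axis), with pooled summits as red lines whose height grows with signal, and the Dl and Su(H) peaks that only other lists hold as open triangles. Both gro summits lie within 1 kb of the first start, those of neur lie 0.6, 5.5 and 7.5 kb from it, and those of N lie 22.5 and 27.7 kb inside the gene.

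N encodes the receptor (FBgn0004647, X:3134870 to 3172221, plus strand, 1 annotated start), and both of its peaks lay deep in the gene. The stronger peak, X:3162339 to 3162738 with its summit at 3162539 in intron 5 of 8, had a signal of 73.8 in replicate 1, 109 in replicate 2 and 184 in the pooled list. It was in the lists of both replicates and in the conservative list, and their summits lay within 13 bp of the pooled one. The weaker peak, X:3157194 to 3157593 in intron 4, had a ranked-list signal of 27.6 in replicate 1 and 42.8 in replicate 2, and 68.6 in the pooled list, where 86.0% of peaks were higher. It was in the list of neither replicate. The summits were 5145 bp apart. Their nearest protein-coding start was not that of N but that of CG18508, just past the 3' end of N, at 10601 bp from the stronger summit and 15746 bp from the weaker. Around the start of N itself the 3 ranked lists used here listed no candidate within 1 kb. The list of replicate 2 also held a flanking peak beside the stronger one, with a signal of 4.38.

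The ligand genes carried no pooled peak. Dl, which the annotation calls Delta (FBgn0000463, 3R:19302731 to 19326217, minus strand), encodes the main ligand of neuroblast selection. A peak at 3R:19304819 to 19305218, in exon 6 of 6 within coding sequence, was in the conservative list with a score of 834 and a signal of 68.3. It was in the list of replicate 2 with a signal of 45.4, and its counterpart in the ranked list of replicate 1 had a signal of 32.1 and a score of 28. The same peak had a score of 727 in the pooled ranked list and so fell below the threshold there. The summit lay 21198 bp downstream of the only annotated start of Dl and 7324 bp from that of CG44174. In the replicates' own lists the call at Dl stood in replicate 2 only, which also held a flanking peak at 3R:19304972 to 19305355 with a signal of 4.28 and a score of 877. The nearest other pooled summit lay 77.0 kb upstream of Dl, at the promoter of Ino80. Ser (FBgn0004197, 3R:27172090 to 27194267, minus strand) encodes Serrate, the other ligand, and had no peak in any thresholded list. Its best-scored candidate, 7744 bp downstream of a start, had a score of 668 and a signal of 68.1 in the pooled ranked list. The best score at Ser in replicate 1 was 432, at another site 18352 bp downstream of a start. In replicate 2 it was 428, at 7709 bp downstream. A pooled summit with a signal of 95.1 lay in intergenic sequence 14975 bp upstream of Ser. It was in neither replicate's thresholded list, with ranked-list signals of 48.6 in replicate 1 and 47.3 in replicate 2.

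The DNA-binding effector Su(H) had a peak in the list of 1 replicate. Su(H) (FBgn0004837, 2L:15039488 to 15043334, plus strand) had a peak at 2L:15039253 to 15039562, 80 bp upstream of its start, with a signal of 46.8 and a score of 874 in the list of replicate 1. No peak overlapped it in the ranked list of replicate 2 or in the pooled ranked list. It is therefore a call of replicate 1 that the lists of replicate 2 used here did not share. In the ranked list of replicate 2 the start of Su(H) lay in a stretch of 15.6 kb between candidates. Missing rows and absent candidates cannot be told apart there. With it, 4 of the 10 genes had a summit within 1 kb in the list of replicate 1 (8.96% of all genes). The list of replicate 2 and the conservative list gave 3 of 10 each (14.9% and 13.1% of all genes). In the list of replicate 1 and in the conservative list, neur counted only through summits nearer to the start of its neighbour hyx. Over all 4 thresholded lists the count was 4 of 10, against 17.8% of all genes.

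H encodes Hairless, the adaptor that brings co-repressors to Su(H), and had no candidate in the lists used here, which may not hold every candidate there. At H (FBgn0001169, 3R:20621938 to 20628915, plus strand) none of the 3 ranked lists listed a candidate in the gene or within 1 kb of its start. That held for 8.30% of all protein-coding genes and for 7.10% of those of 5 to 10 kb. The nearest pooled summit lay 12.2 kb downstream of the start of H, in a 5' UTR of Pi3K92E, the gene of a phosphoinositide kinase. Its signal was 103, with 26.2 in replicate 1 (ranked list only) and 76.0 in replicate 2.

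gro encodes the co-repressor and carried the closest pair of pooled summits at any of the 10 genes. At gro (FBgn0001139, 3R:26041736 to 26049911, plus strand, 4 annotated starts) the stronger peak, 3R:26042406 to 26042605, had its summit in the first intron, 126 bp upstream of an inner start. Its signal was 165 in replicate 1 and 150 in replicate 2, and 312 in the pooled list, where 8.45% of peaks were higher. It was in all 4 thresholded lists. The ratio of its replicate 2 signal to its replicate 1 signal was 0.909. The median was 1.39 over pooled peaks with a candidate in both ranked lists. The weaker peak, 3R:26041471 to 26041870, lay 65 bp upstream of the first start and 844 bp from the stronger one. It had a signal of 32.4 in the ranked list of replicate 1, 45.9 in that of replicate 2 and 76.4 in the pooled list. It was in the pooled and conservative lists but in neither replicate's own list, and its score was 36 in replicate 1 and 815 in replicate 2. No other protein-coding start was nearer to either summit, the next being that of E(spl)m8-HLH, at 1431 bp from the weaker summit. gro ends the E(spl) gene complex, whose genes encode the main targets of the pathway. From the first E(spl) gene to the end of gro, a stretch of 52.3 kb, the pooled list held 5 summits, of which the inner gro peak had the highest signal.

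mam encodes the co-activator Mastermind and held the peak of highest signal among the 10 genes. At mam (FBgn0002643, 2R:13991203 to 14060356, plus strand, 3 annotated starts) this peak, 2R:14025016 to 14025264, lay in intron 3 of 6. Its signal was 140 in replicate 1, 271 in replicate 2 and 408 in the pooled list, where 4.73% of peaks were higher. It was in all 4 thresholded lists, 6518 bp upstream of the nearest start of mam and 3475 bp from that of CG18371, a gene inside mam. A second intronic peak, 2R:14008290 to 14008689, had a signal of 53.1 in replicate 1, 67.3 in replicate 2 and 120 in the pooled list. It lay 709 bp upstream of the middle start, which was the nearest protein-coding start, and was in the lists of both replicates. The upstream peak, 2R:13990660 to 13991059, lay 343 bp upstream of the first start of mam and only 153 bp from that of RN-tre on the opposite strand. It had a signal of 21.4 in the ranked list of replicate 1, 69.8 in replicate 2 and 83.8 in the pooled list, and was in the list of replicate 2 only. The 3 summits were spread over 34.3 kb.

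neur encodes the ubiquitin ligase Neuralized, which drives uptake of the ligands in the signalling cell, and had 3 peaks of pooled signal below the median of all pooled peaks. At neur (FBgn0002932, 3R:9020348 to 9039471, minus strand, 2 annotated starts) all 3 lay in the first intron. The peak at the outer start, 3R:9038689 to 9039088, had a signal of 63.5 in replicate 1, 48.8 in replicate 2 and 98.3 in the pooled list, and was in the lists of both replicates. Its summit was 582 bp inside neur but 129 bp from the start of hyx, which encodes a subunit of the PAF1 transcription complex and overlaps neur on the opposite strand. The peak at the inner start, 3R:9033727 to 9034126, lay 196 bp upstream of it and 4833 bp from hyx. Its signal was 26.8 in the ranked list of replicate 1, 79.4 in replicate 2 and 103 in the pooled list. The remaining peak, 3R:9031773 to 9032172, was 1758 bp downstream of the inner start, with a signal of 32.5 in the ranked list of replicate 1, 63.4 in replicate 2 and 82.1 in the pooled list. These last peaks were in the list of replicate 2 and not in that of replicate 1, so the peak that both replicates listed at neur is the one nearer to hyx. The conservative list held that peak, a flanking peak beside it with a signal of 17.0, and the peak 1758 bp downstream of the inner start. It did not hold the peak at the inner start.

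**Figure D3:**
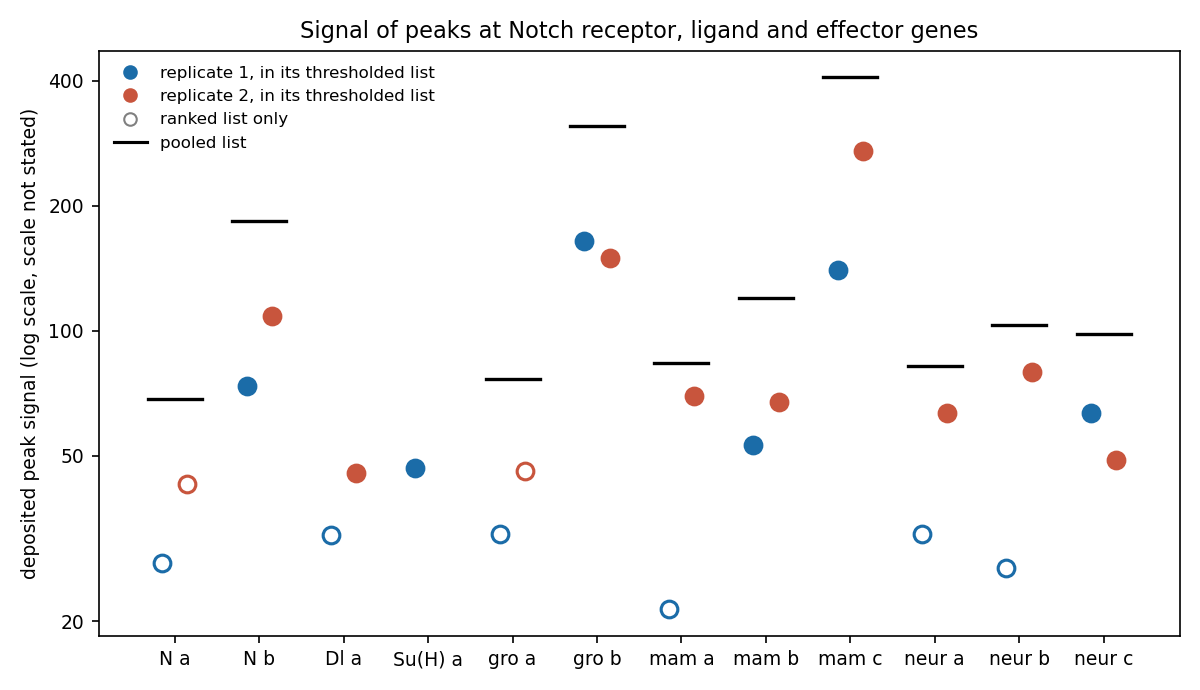
Deposited signal (log axis, scale not stated) of the 10 pooled peaks and of the Dl and Su(H) peaks, lettered along the chromosome within each gene, in replicate 1 (blue), replicate 2 (red) and the pooled list (black bar); filled points are in the replicate's thresholded list and open points in its ranked list only. Replicate 2 is higher in 8 of the 10 pooled peaks, and the inner gro peak and the outer neur peak (gro b and neur c) are higher in replicate 1.

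Across the 10 pooled peaks, the signal in replicate 2 was higher than in replicate 1 in 8, and the exceptions were the inner gro peak and the outer neur peak. The ratio of replicate 2 to replicate 1 ran from 0.768 at the outer neur peak to 3.27 at the upstream mam peak. At that mam peak the replicate 1 candidate had a score of 30 and a summit 82 bp from the pooled one. At the inner neur peak, with a ratio of 2.96, it had a score of 27 and a summit 83 bp away. Over the 2989 pooled peaks with a candidate in both ranked lists the median ratio was 1.39, with quartiles of 1.04 and 1.91, and 77.5% were above 1. The lists of the replicates were made separately, so these ratios describe the deposited values and not binding. Where both replicates listed the peak, their summits lay within 27 bp of the pooled summit. In the pooled list the 10 peaks had signals from 68.6 to 408 with a median of 101, against a median of 106 over all pooled peaks on the main arms, and 4 of the 10 were above that median.

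kuz encodes the ADAM protease Kuzbanian, which makes the first cut in ligand-bound Notch, and fng encodes the glycosyltransferase Fringe, which sets the receptor's response to each ligand. Neither had a peak in any thresholded list. At kuz (FBgn0259984, 2L:13550139 to 13639411, plus strand) the best-scored candidate lay 59.0 kb downstream of the start with a score of 701 and a signal of 67.3 in the pooled ranked list. The best scores at kuz in the replicates were at other sites, 194 in replicate 1 (74.5 kb downstream) and 486 in replicate 2 (22.0 kb downstream). At fng (FBgn0011591, 3L:20925891 to 20949512, minus strand) the best-scored candidate lay 343 bp upstream of the start with a score of 489 and a signal of 27.7. The best scores at fng in the replicates were also at other sites, 128 in replicate 1 (11.0 kb downstream) and 188 in replicate 2 (840 bp upstream). Just outside the threshold of 830 in the pooled ranked list therefore stood Dl at 727, kuz at 701 and Ser at 668. Just inside it stood the upstream gro peak at 901 and the weaker N peak at 958, whose genes also had a peak at 1000.

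**Figure D4:**
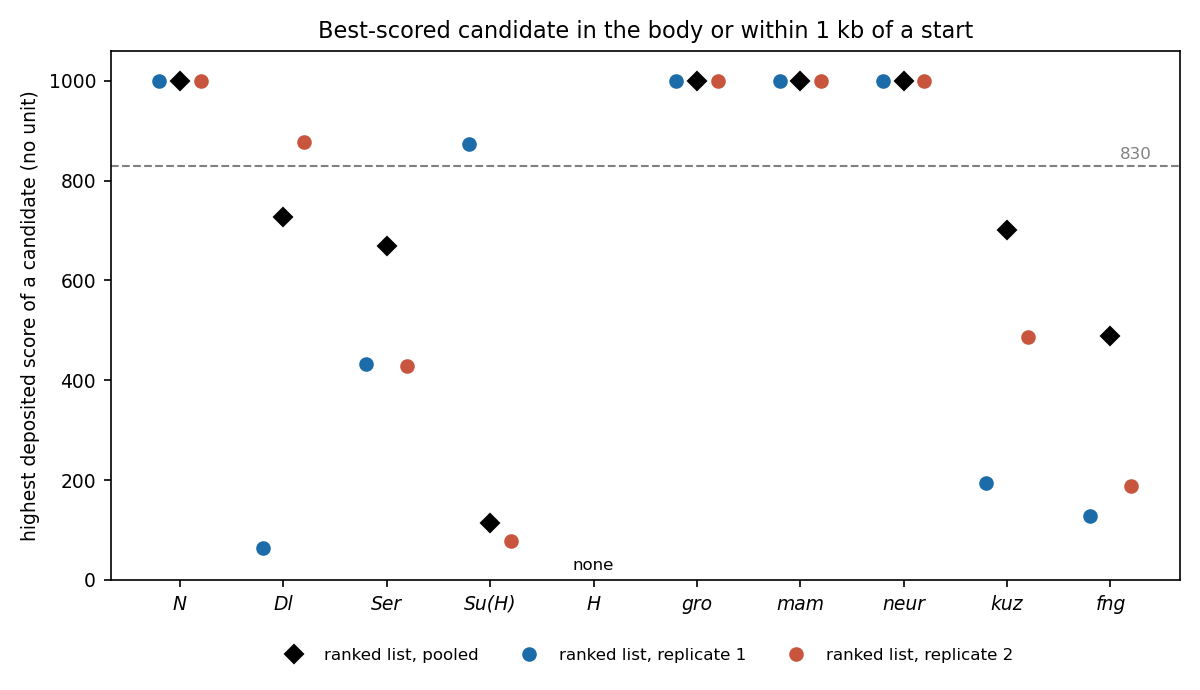
Highest deposited score (no unit) of any candidate in the gene body or within 1 kb of a start, for each gene in the pooled ranked list (diamonds) and in the ranked lists of replicate 1 (blue) and replicate 2 (red); the dashed line marks the score of 830 above which thresholded lists begin. N, gro, mam and neur reach 1000 in all 3, Dl passes in replicate 2 and Su(H) in replicate 1, and H has no candidate.

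The starts of several members lay in long stretches without any candidate, a feature looked for after the values at H had been seen. In the pooled ranked list, where the median spacing of neighbouring summits was 649 bp, 5 of the 10 genes had a start in a stretch of 10 kb or more between candidates, against 16.2% of all protein-coding genes. The stretch was 18.3 kb at N, 19.8 kb at Dl, 17.5 kb at Su(H), 13.4 kb at H and 20.2 kb at kuz. For N, Dl, H and kuz it was 10 kb or more in all 3 ranked lists, 4 of 10 members against 9.42% of all genes. Both counts include H, which prompted the search, and the pooled list derives from both replicates. At N the stretch was 20.1 kb in replicate 1 and 14.8 kb in replicate 2. At kuz it was 21.6 and 18.3 kb, at H 13.8 and 10.8 kb, and at Dl 10.4 and 19.7 kb. At Su(H) the replicate 1 peak interrupted it. In these stretches N, Dl, H and kuz had no candidate within 1 kb of a start in any of the 3 lists, as did 10.4% of all genes. This largely restates the stretches and is not a separate result. Rows missing from the lists used here and regions without candidates cannot be told apart, and what sets these stretches was not tested.

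The base composition at the summits differed widely among the 10 pooled peaks. GC content within 50 bp of the summit had a median of 29.7%, against 33.7% over all pooled peaks, and ran from 18.8% to 66.3%. The mam gene held both ends, the intronic peak of highest signal at 18.8% and the peak before the middle start at 66.3%. Its upstream peak was at 21.8%. At gro the inner, stronger peak was at 30.7% and the upstream peak at 53.5%. At neur the values were 26.7% at the inner start, 37.6% farther in and 45.5% at the outer start, and at N they were 25.7% and 28.7%. Outside the pooled list, the Dl peak stood at 65.3% and the Su(H) peak at 41.6%.

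The motif of the EGR/WT1 family was present at a few of these summits. Motifs were searched on both strands within 50 bp of the summit. The Klu/EGR motif was spelled GTGGGCG or GTGGGTG, and the Su(H) motif CGTGGGAA, CGTGAGAA, TGTGGGAA or TGTGAGAA. Some spellings of both share the letters GTGGG. The GAGA motif was spelled GAGAG. The Klu/EGR motif lay at 2 of the 10 pooled peaks, against 4.50% of all 3087. At the outer neur peak, GTGGGTG stood 45 bp from the summit, in capitals at the end of the sequence printed above. At the mam peak before the middle start the same word stood on the reverse strand, 20 bp from the summit. With windows of 25 bp the mam peak alone held it, and over whole peaks it was in 3 of the 10, the mam peak of highest signal included, against 14.6% of all pooled peaks. The Su(H) motif was in none of the 10 within 50 bp (1.26% of all pooled peaks). Over whole peaks it was in 1, the stronger N peak (4.50% of all). The GAGA motif was in 1 of the 10, the same mam peak (10.7% of all). A match to a motif is a description of the letters and shows no binding.

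Among 20 other genes of the pathway, 8 had a pooled summit within 1 kb of a start, against the 16.1% of all protein-coding genes given above. That share ran from 10.3% for genes below 2 kb to 25.4% at 50 kb and more. Of the 8, aph-1 and rumi are below 2 kb, l(2)gd1 and mib1 are 3.9 and 5.3 kb, and CtBP, nej, numb and skd are above 10 kb. The list of replicate 1 gave 5 of the 20 (8.96% of all genes), that of replicate 2 gave 7 (14.9%) and the conservative list 7 (13.1%). For 7 of the 8 no other protein-coding start was nearer to the strongest peak. The highest signal was at l(2)gd1, a regulator of endosomal Notch traffic, at 654 when pooled (279.8 in replicate 1, 377 in replicate 2), 120 bp upstream of its start and 178 bp from that of Reps. The gamma-secretase subunit gene aph-1 had a signal of 234 (72.6 in replicate 1, 83.7 in replicate 2), 254 bp upstream of its start. The co-activator gene nej, which encodes the acetyltransferase CBP, had 233 (96.2 and 134), 692 bp upstream. The glucosyltransferase gene rumi had 132 (47.0 and 95.2), 90 bp upstream.
At numb, which encodes a Notch inhibitor of asymmetric division, the strongest peak (410, with 293.9 in replicate 2) was in the list of replicate 2 only. The ranked list of replicate 1 used here had no candidate there, which cannot be told apart from a missing row. The conservative list also held a summit within 1 kb of a numb start. At the ligand-regulating ubiquitin ligase gene mib1 the peak (79.2, with 21.4 and 55.2) was in the list of replicate 2 only. The conservative list held no summit near a mib1 start. The peak at the Mediator gene skd (117, with 36.4 and 80.3) was in the list of replicate 2 only and lay 2 bp from the start of Pdss2. The co-repressor gene CtBP (97.7, with 52.0 and 40.6) was in the list of replicate 1 only. Psn, nct, pen-2, Tace, lqf, O-fut1, spdo, dx, Su(dx), Bx42, kto and insv had no summit within 1 kb of a start in the pooled list.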

How the data were processed

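The authors deposited peak lists in dm6, per the labels, with a score per peak (column 5) and a signal per peak (column 7) of unstated scale. Per the deposited text files, each list derives from the alignments of 1 or both replicates and a shared further file, and file types name irreproducible discovery rate ranking. The sources used here name no aligner or peak caller. Only peaks on the 6 main arms were kept, which left out 39 pooled peaks. Depth per sample is unknown.

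Gene models came from Ensembl release 115 (BDGP 6.54), whose arms cover every peak end, and sequence from the release 6 assembly. Dl was matched to Delta and nct to Nct. Distances run from the summit to the nearest annotated start. Each pooled peak took its replicate signals from the ranked lists, using the overlapping candidate whose summit was closest, and peaks of different lists with summits within 100 bp were taken as 1 peak. Python 3.11.15, pandas 2.3.3, numpy 2.4.6 and matplotlib 3.10.9 were used, and gene assignment was checked on simulated summits. The members and lists were chosen with earlier results of these data known, so no test was run. The genes named are the members, genes with a nearer start, pathway genes with a summit within 1 kb and, chosen after values were seen, genes beside the nearest outside peaks. Alternatives were other lists, distances, windows and overlaps.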

Additional observations from a re-analysis of the deposited data

How the results depend on the processing

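Of 35 alternative values, 28 stayed within 1.5 times the reported count. With counts this small the limit is loose, since 2 or 4 genes in place of 3 pass it. The alternatives also draw on the same 2 replicates and are not independent of each other. Members with a summit near a start (1 kb) numbered 2 (peaks above the median signal, without neur) to 4, and those with a body summit 3 to 5, with Dl added by the conservative list and by that of replicate 2. With the lists of replicate 1 and replicate 2 in turn, summits at the members numbered 6 and 11. Other pathway genes with a summit within 1 kb numbered 5 and 7 of 20, against 8.96% and 14.9% of all genes. The 10 pooled peaks all had a candidate in both ranked lists, and 5 had one in both thresholded lists. With windows of 25 bp the Klu/EGR motif was at 1 peak. Over whole peaks the Su(H) motif was at 1, and the GAGA motif was at 2 of 10 with windows of 100 bp (23.4% of all pooled peaks) and at 3 of 10 over whole peaks (41.1%). No paired analysis was possible because the series has 1 group. Unknown depth limits what the absence of a peak can show.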
